A study of Mus musculus with 6 samples.

Results

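The sirtuins are a family of 7 genes in the mouse, Sirt1 to Sirt7, and all 7 were found by symbol among the 40428 features of the count table, each on a single line. Their transcripts were measured by RNA sequencing of whole subcutaneous white adipose tissue from 3 ANKO mice and 3 control mice. ANKO mice are adipocyte-specific Nampt knockouts made with floxed Nampt alleles and a Cre transgene under the adiponectin promoter. Control mice carried the floxed alleles (flox/flox), and the labels do not mention the Cre transgene for them. Both groups had the C57BL/6J background, ate regular chow and lived at room temperature. The labels used here state no age. The adiponectin promoter acts in adipocytes, and the vascular, stromal and immune cells of the tissue are not its targets.

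Sirtuins remove acetyl or longer acyl groups from lysines of other proteins, and each reaction splits a molecule of NAD and releases nicotinamide. NAMPT starts the salvage route that turns this nicotinamide back into NAD. SIRT1, SIRT6 and SIRT7 act mainly in the nucleus, SIRT2 mainly in the cytosol, and SIRT3, SIRT4 and SIRT5 in mitochondria. In fat, SIRT1 is known for deacetylating PPARG and FOXO1, and SIRT3 for deacetylating enzymes of mitochondrial metabolism. The comparison reads the transcripts of these NAD users in whole tissue from mice whose adipocytes were the target of the Nampt deletion. It cannot tell what the adipocytes themselves express. RNA counts do not measure sirtuin protein, NAD or deacylase activity.

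No sirtuin passed the test for a difference between ANKO and control tissue. The fold changes ran from 0.895 of the control level for Sirt4 to 1.149 times the control level for Sirt6. Nampt, measured in the same libraries, fell to 0.553 of its control level. Each library held 19748962 to 23860596 counts, and the 7 sirtuins together made up 4490 to 5026 counts in ANKO libraries and 4017 to 4869 in control libraries. These are 0.0210% to 0.0220% of all counts in ANKO and 0.0203% to 0.0216% in control.

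Values below are CPM, counts relative to the size of the library, scaled by TMM, a factor per library that corrects for differences in composition. The test was edgeR's quasi-likelihood F test over 19272 features, with Benjamini-Hochberg adjustment over all of them and a threshold of 0.05. Nampt stood at 48.6, 50.2 and 47.0 CPM in ANKO and at 83.6, 93.0 and 87.0 CPM in control (log2 fold change -0.85, SE 0.0776, adjusted p = 0.00416). The ANKO values were all under the control values, as the labels imply. The count covers the whole gene, and the labels do not say which exons are floxed. In bulk tissue fewer cells of a type and less RNA per cell cannot be told apart. Over all features 1.59% were called in either direction, 0.488% higher and 1.1% lower in ANKO. The share of calls that were lower was 69.3% by edgeR and 56.2% by DESeq2, and by edgeR 86.3% without control 1 and 46.5% without ANKO 1. Of the 7 sirtuins, all of which passed the filter on low counts, 0 were called by edgeR, DESeq2 or limma-voom, and 0 had an unadjusted p under 0.05, against 12.9% of all features.

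Before the values by gene, the places of the genes and a few stretches of sequence before their RefSeq starts are given, since the start regions of several sirtuins are shared with other genes. Positions are those of GENCODE M21 on GRCm38, the build named in the submitters' processing notes. Sirt1 lies on chromosome 10 (63319005 to 63381704, minus strand), and so does Sirt6 (81621785 to 81627797, minus strand). Sirt2 (28766735 to 28788661, plus strand) and Sirt3 (140863666 to 140882309, minus strand) lie on chromosome 7. Sirt4 lies on chromosome 5 (115478010 to 115484725, minus strand), Sirt5 on chromosome 13 (43365496 to 43395203, plus strand) and Sirt7 on chromosome 11 (120618372 to 120625240, minus strand).

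RefSeq (GRCm38.p6) gave 9 start windows for the 7 genes, and the 250 bases before each start were read. RefSeq starts can lie inside the GENCODE span of a gene, and every window except the one before the distal Sirt3 start holds GENCODE exon bases of its own sirtuin. They held 12 to 39 CpG sites, with a median of 6 over 32851 windows of all genes and the most, 39, before Sirt1. Motifs chosen after the windows had been read were searched on both strands. The E-box CACGTG, a site bound by MYC, USF and CLOCK-BMAL1 factors, was in 1 of the 9 sirtuin windows and in 6.02% of all windows. It occurs at 2 places before the RefSeq start of Sirt1. This start is internal to the GENCODE span, whose outer end on this strand is at 63381704. The stretch chr10:63339051-63339285 on the minus strand, which leaves out the 15 exon bases of the window, is printed with both in capitals.
Sirt1 before the RefSeq start: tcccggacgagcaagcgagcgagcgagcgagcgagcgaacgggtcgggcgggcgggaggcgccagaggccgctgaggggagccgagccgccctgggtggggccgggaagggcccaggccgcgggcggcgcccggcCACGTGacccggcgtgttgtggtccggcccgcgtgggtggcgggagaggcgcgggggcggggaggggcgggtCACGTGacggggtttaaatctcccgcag
The element TCAAGGTNA, the form bound by estrogen-related receptors, was in 1 of the 9 windows and in 0.962% of all windows. It starts 20 bases before the distal Sirt3 start, in bases that are also part of Psmd13, at chr7:140882310-140882339 on the minus strand.
Sirt3 before the distal RefSeq start: gttgcggtcgTCAAGGTAAccgcgttcttg
The letters ACTACAA, which open the long form of the element bound by ZNF143, were in 2 of the 9 windows, those of Sirt2 and Sirt4, and in 2.81% of all windows. Both are read here as the reverse complement, in capitals, at chr7:28766675-28766704 (plus strand) and chr5:115484410-115484439 (minus strand). The Sirt4 stretch lies within the GENCODE span of Sirt4, and 216 of the 250 bases of its window are Sirt4 exon there.
Sirt2 before the RefSeq start: ctttttgggatTTGTAGTttgataacatga
Sirt4 before the RefSeq start: gattctgggacTTGTAGTtttcttccaact
A match of letters is a description, and nothing in these libraries measures binding at these places.

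Among the nuclear sirtuins, Sirt1 encodes the deacetylase of FOXO factors, p53, PGC-1alpha and PPARG. Its values were 28.4, 29.7 and 30.5 CPM in ANKO and 30.2, 27.4 and 26.6 CPM in control. The groups overlapped, with control 1 between ANKO 2 and ANKO 3. The log2 fold change was 0.07 (SE 0.0937, edgeR adjusted p = 0.830), with a 95% interval of -0.14 to 0.29, or 0.905 to 1.22 times the control level.

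Sirt6 encodes a chromatin deacetylase that acts on histone H3 at glycolytic and inflammatory genes. It had the largest positive fold change of the family and the least even control values. It stood at 21.05, 21.05 and 20.86 CPM in ANKO and at 20.1, 21.6 and 13.1 CPM in control. The 3 ANKO libraries lay between control 1 and control 2, and control 3 stood apart below them all with 254 counts against 429 to 501 in the other 5 libraries. The log2 fold change was 0.20 (SE 0.181, edgeR adjusted p = 0.735), with an interval of -0.22 to 0.62. Without control 3 it was 0.02. The ANKO coefficient of variation of 0.512% is smaller than the 4.83% that counting error alone gives at this depth, so this SD from 3 libraries understates the error, and the same holds for Sirt7 (0.516% against 2.94%) and Sirt4 (1.71% against 6.06%).

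Sirt7 encodes a nucleolar deacylase linked to transcription of ribosomal RNA genes by RNA polymerase I. Its values were 52.2, 52.1 and 51.7 CPM in ANKO and 59.1, 48.9 and 54.8 CPM in control. All 3 ANKO libraries lay within the range of the controls. Sirt7 had a log2 fold change of -0.06 (SE 0.0899, edgeR adjusted p = 0.846), with an interval of -0.27 to 0.14.

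Sirt2, the cytosolic tubulin deacetylase that also acts on FOXO1 and on phosphoenolpyruvate carboxykinase, had the most counts of the family, 1593 to 1856 in ANKO and 1396 to 1622 in control. It stood at 78.0, 77.0 and 74.0 CPM in ANKO and at 71.0, 70.4 and 80.0 CPM in control. ANKO values lay above 2 controls and below control 3. Sirt2 had a log2 fold change of 0.05 (SE 0.0812, edgeR adjusted p = 0.876), and its interval of -0.14 to 0.24 was the narrowest of the 7, covering 0.908 to 1.18 times the control level.

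**Figure D1:**
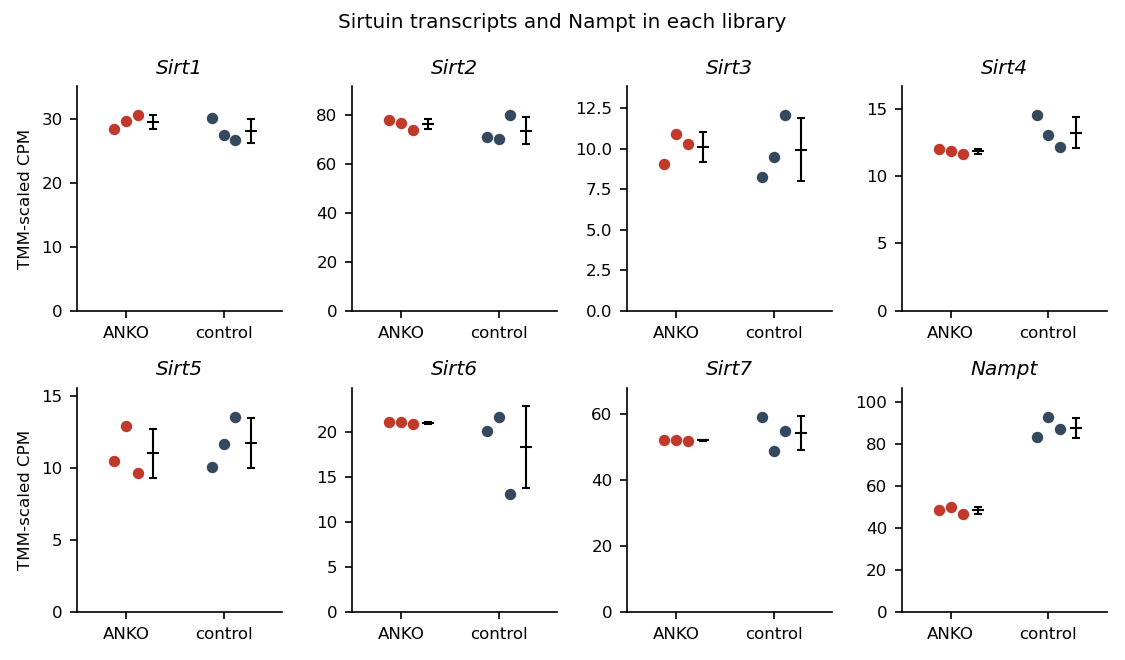
TMM-scaled CPM (vertical axes from 0) of each sirtuin and of Nampt in the 3 ANKO libraries (red) and 3 control libraries (dark blue), with mean and SD as bars. Nampt separates the groups widely at 47.0 to 50.2 against 83.6 to 93.0 CPM, Sirt4 by a narrow gap, and the other 6 sirtuins overlap, with control 3 low for Sirt6.

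Of the mitochondrial sirtuins, Sirt4 encodes an ADP-ribosyltransferase and deacylase of mitochondrial enzymes, among them glutamate dehydrogenase and methylcrotonyl-CoA carboxylase. It was the only sirtuin whose groups did not overlap. Its values were 12.02, 11.87 and 11.6 CPM in ANKO and 14.5, 13.0 and 12.2 CPM in control. The highest ANKO value, 12.02 CPM, was just under the lowest control value, 12.16 CPM. Groups that do not overlap with ANKO lower were seen for 10.2% of all features, and 19.4% did not overlap in either direction. In 0 of the 7 sirtuins did all ANKO values lie above all control values, against 9.19% of all features. The log2 fold change of -0.16 (SE 0.125, edgeR adjusted p = 0.681) did not pass the test, and its interval was -0.45 to 0.13.

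Sirt3 encodes the main deacetylase of the mitochondrial matrix. It stood at 9.08, 10.9 and 10.3 CPM in ANKO and at 8.28, 9.47 and 12.1 CPM in control, so all ANKO values lay inside the control range. Sirt3 had a log2 fold change of 0.02 (SE 0.176, edgeR adjusted p = 0.977), with an interval of -0.38 to 0.43. Its sign turned when control 1, control 2 or ANKO 2 was left out (-0.09, -0.01 and -0.04).

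Sirt5 encodes the desuccinylase and demalonylase of mitochondria. Its values were 10.5, 12.9 and 9.67 CPM in ANKO and 10.1, 11.6 and 13.6 CPM in control, and the groups overlapped. The log2 fold change was -0.09 (SE 0.171, edgeR adjusted p = 0.892), with an interval of -0.48 to 0.30. Sirt3 and Sirt5 had the fewest counts of the family, 188 to 252 and 208 to 298 per library, and with Sirt6 they had the widest intervals. These intervals covered 0.767 to 1.35 times the control level for Sirt3, 0.715 to 1.23 for Sirt5 and 0.860 to 1.53 for Sirt6, while for Sirt1, Sirt2 and Sirt7 they reached at most 1.22 times and at least 0.829 of the control level.

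**Figure D2:**
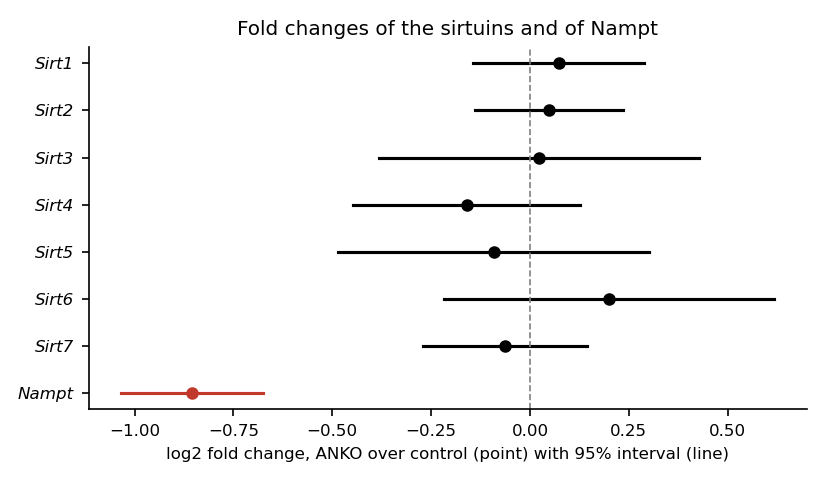
Log2 fold change of ANKO over control (horizontal axis) with its 95% interval for each sirtuin and for Nampt, which is in red because it passed the test. All 7 sirtuin intervals include 0, and their lowest bound, -0.48 for Sirt5, lies above the upper bound of Nampt, -0.68.

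Summed over the family, the sirtuins gave 211, 215 and 209 CPM in ANKO and 213, 202 and 212 CPM in control. The share of the family's counts that came from the mitochondrial members Sirt3, Sirt4 and Sirt5 was 14.96%, 16.6% and 15.1% in ANKO and 15.4%, 16.9% and 17.8% in control, and the ranges overlapped. The median log2 fold change of the 7 was 0.02, with 4 positive and 3 negative, and over all tested features it was 0.00068. The members' own values were thus spread around the centre of all features, with no member past the test.

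To compare levels between the genes, CPM was divided by the length of each gene's merged exons in kilobases (2.40 for Sirt4 to 6.09 for Sirt5). On this scale Sirt2 was the highest, at 15.2 ± 0.409 CPM per kilobase in ANKO and 14.7 ± 1.07 in control (SD, n = 3 each). Sirt7 followed with 10.1 ± 0.0521 in ANKO and 10.5 ± 0.993 in control, and Sirt6 with 7.54 ± 0.0386 and 6.56 ± 1.63 CPM per kilobase in ANKO and control. Sirt1 stood at 5.54 ± 0.205 CPM per kilobase in ANKO and 5.27 ± 0.348 in control, and Sirt4 at 4.93 ± 0.0843 and 5.51 ± 0.493 in ANKO and control. The lowest were Sirt5, with 1.81 ± 0.276 CPM per kilobase in ANKO and 1.93 ± 0.286 in control, and Sirt3, with 1.69 ± 0.156 and 1.66 ± 0.324 in ANKO and control.

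The order was not equally sharp at each step. Sirt2 lay above Sirt7, Sirt7 above Sirt6 and Sirt4 above Sirt5 in 6 of 6 libraries, and the ranges of these neighbours over the libraries did not overlap. Sirt6 lay above Sirt1 in 5 of 6 libraries, with control 3 the exception, and Sirt5 above Sirt3 in 5 of 6. Sirt1 and Sirt4 could not be ordered, since Sirt1 was higher in 3 of 6 libraries. Sirt2 was 7.87 to 10.2 times Sirt3 within a library. Among 19164 tested features with a length, Sirt2 reached the 84.3rd percentile of the per-kilobase level, Sirt7 the 75.5th, Sirt1 the 57.2nd and Sirt3 the 28.4th. With the longest annotated transcript as the length, Sirt4 moved above Sirt1 and the other places stayed as they were. Merged exons include those of minor transcripts, so levels between genes depend on the annotation in a way that the SD does not show.

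**Figure D3:**
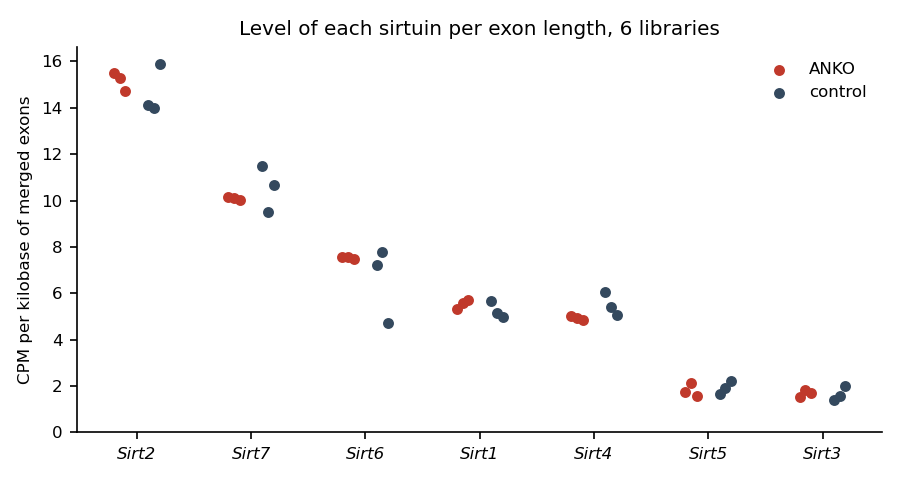
Level per kilobase of merged exons (vertical axis, CPM per kilobase, from 0) of the 7 sirtuins in order of their mean, in 3 ANKO (red) and 3 control (dark blue) libraries. Sirt2 lies above all others, Sirt1 and Sirt4 overlap, and Sirt5 and Sirt3 overlap at the low end.

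Several sirtuin genes lie start to start with a gene on the other strand. The start regions of Sirt3 and Psmd13, a subunit of the proteasome cap, overlap, and 342 bases of the Sirt3 exons are shared with Psmd13 exons and 418 with those of Ric8a, a chaperone of G protein alpha subunits. Whether the counting used strand is not stated in the labels, so reads in these bases cannot be assigned with certainty. Psmd13 stood at 38.1 ± 0.910 CPM in ANKO and 38.3 ± 1.09 in control (SD, n = 3 each; log2 fold change -0.01, edgeR adjusted p = 0.984), and Ric8a at 54.8 ± 4.06 and 55.0 ± 1.96 CPM in ANKO and control. Sirt2 shares 42 exon bases with Nfkbib, which encodes an inhibitor of NF-kappaB, and their start regions overlap. Nfkbib was at 21.1, 19.6 and 19.6 CPM in ANKO and 21.7, 24.9 and 25.8 CPM in control. These groups did not overlap, as was seen with ANKO lower for 10.2% of all features. The difference did not pass the test (log2 fold change -0.26, SE 0.109, edgeR adjusted p = 0.358).

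Measured from the outermost GENCODE start, Sirt6 lies 743 bases from the start of Ankrd24 on the other strand, and Sirt1 739 bases from that of Dnajc12, a cochaperone of the J-domain family. The RefSeq starts of Sirt1 and Sirt6 lie farther inside these genes, so the distances of 739 and 743 bases do not hold for them. Ankrd24 had 21.4 ± 1.52 CPM in ANKO and 23.1 ± 3.72 in control, and Dnajc12 7.12 ± 1.66 and 4.95 ± 3.37 CPM in ANKO and control (SD, n = 3 each). Neither passed the test (edgeR adjusted p = 0.825 and 0.745). Sirt7 shares 124 exon bases with Mafg, a small MAF transcription factor on the same strand, which stood at 84.7 ± 6.44 CPM in ANKO and 77.1 ± 7.37 in control (edgeR adjusted p = 0.650). No annotated neighbour of this kind was found for Sirt4 or Sirt5 within 1000 bases of the start.

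For each sirtuin the feature with the most similar profile was taken, by Pearson correlation of log2 CPM over the 6 libraries among 10167 features with a mean of at least 10 CPM. With 6 libraries and so many candidates high values are easily reached, and the hundredth best candidate still had r = 0.837 to 0.961. The most similar were Pafah1b1 for Sirt1 (r = 0.991), Fundc2 for Sirt2 (r = 0.986), Nckipsd for Sirt3 (r = 0.991) and Zrsr2 for Sirt4 (r = 0.988). For Sirt5 it was Atp5g2 (r = 0.993), for Sirt6 Rnf130 (r = 0.997) and for Sirt7 Jam3 (r = 0.979). None of these passed the test between the groups, and their edgeR adjusted p-values ran from 0.544 for Zrsr2 to 0.998 for Nckipsd. Each was chosen for its likeness to a sirtuin in these same libraries, where no sirtuin was called. The lack of calls and the shared patterns below follow closely from that choice and are no separate result. Rnf130 shared the low control 3 of Sirt6, with 51.7, 52.1 and 51.6 CPM in ANKO and 51.2, 52.0 and 40.9 CPM in control. Zrsr2 shared the narrow gap of Sirt4, with 31.3, 31.4 and 30.9 CPM in ANKO and 38.8, 35.2 and 31.5 CPM in control.

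The genes around the sirtuins were read from lists. Of 11 zinc-dependent histone deacetylases, which do not use NAD, 0 passed the test. Over all features 1.59% were called, so 0 in a list this short is near that share. Their median log2 fold change was -0.05, and the smallest p was that of Hdac3, a nuclear class I deacetylase, at 45.3 ± 4.76 CPM in ANKO and 52.1 ± 4.23 in control (log2 fold change -0.20, edgeR adjusted p = 0.496). Of 19 genes listed as other NAD consumers, 0 passed the test, which is also near 1.59%. They are genes of the poly(ADP-ribose) polymerase family, Zc3hav1 among them, with Cd38, Bst1 and Sarm1. The family was listed whole, whatever the activity of each member. Their median was -0.07, and Parp4 had the smallest p (edgeR adjusted p = 0.320). Of 22 measured genes in the list of NAD synthesis and salvage 2 fell, Nampt and Nnmt, against 1.1% of all features. Nampt is the deleted gene, and its fall is what the labels imply. Nnmt encodes an enzyme that methylates nicotinamide, which is not a step of synthesis or salvage. Apart from Nampt, edgeR thus called no gene of such a step. Nnmt stood at 7.96 ± 0.308 CPM in ANKO and 39.4 ± 4.92 in control (SD, n = 3 each; edgeR adjusted p = 0.000869). With Nampt and Nnmt included, the median of this list was -0.20, with 17 negative and 5 positive log2 fold changes. In 5 of the 22, Nampt and Nnmt among them, all ANKO values lay under all control values, against 10.2% of all features. DESeq2 also called Nmnat3, lower in ANKO (edgeR log2 fold change -0.59, edgeR adjusted p = 0.139).

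Of 11 regulators of SIRT1, 0 passed the test, near the 1.59% of all features called. The SIRT1 inhibitor Ccar2, also known as DBC1, had a log2 fold change of -0.11 and the SIRT1 activator Rps19bp1, or AROS, of -0.01. The smallest p was that of Usp22, a deubiquitinase that stabilises SIRT1, at 82.8, 96.9 and 83.6 CPM in ANKO and 66.8, 73.8 and 65.1 CPM in control. Its groups did not overlap, but its log2 fold change of 0.36 (SE 0.0941) did not pass (edgeR adjusted p = 0.138). Groups that do not overlap with ANKO higher were seen for 3 of these 11 and for 9.19% of all features.

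Next come genes whose proteins are known sirtuin substrates or partners. The share called was 4.55% of the SIRT1 list, 14.3% of the SIRT2 list and 7.41% of the mitochondrial list, all lower. These shares rest on 1, 2 and 2 genes. Over all features 1.59% were called, and 1.1% were called lower. Of 22 SIRT1 substrates 1 fell, Foxo1, the insulin-regulated transcription factor, at 102, 102 and 103 CPM in ANKO and 145, 155 and 143 CPM in control (log2 fold change -0.52, SE 0.0732, edgeR adjusted p = 0.0152). Pparg had a log2 fold change of -0.51 and Ppargc1a, which encodes PGC-1alpha, of -0.55, and neither passed the test (edgeR adjusted p = 0.430 and 0.357). The median of the SIRT1 substrates was -0.03. In 5 of these 22 all ANKO values lay under all control values, against 10.2% of all features. In 1 of the 22 all ANKO values lay above all control values, against 9.19%. Of 14 SIRT2 substrates 2 fell, Foxo1 and Pck1, the cytosolic phosphoenolpyruvate carboxykinase. Pck1 stood at 263, 282 and 372 CPM in ANKO and 1114, 2644 and 2348 CPM in control (log2 fold change -2.73, SE 0.346, edgeR adjusted p = 0.0189), while the median of the SIRT2 substrates was 0.01. Foxo1 was not called without control 2, ANKO 1, ANKO 2 or ANKO 3 (highest adjusted p = 0.0845, without ANKO 3, by edgeR), nor with the muscle covariate (adjusted p = 0.0508). Its log2 fold change was -0.54 to -0.49 without 1 library and -0.53 with the covariate, close to the -0.52 of all 6 libraries. Pck1 was not called without control 2, control 3 or any 1 of the ANKO libraries (highest edgeR adjusted p = 0.121, without ANKO 2), nor with no low-count filter (adjusted p = 0.0692). Its log2 fold change was -3.03 to -2.50 without 1 library and -2.73 with no filter. In the same libraries the 8 adipocyte markers summed to 4956 to 7363 CPM in ANKO and 11967 to 18258 CPM in control, and their part in these values and in those of Mccc1 and Mccc2 was not tested.

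Of 27 measured substrates and partners of the mitochondrial sirtuins 2 fell, against 1.1% of all features: Mccc1 and Mccc2. They encode both chains of methylcrotonyl-CoA carboxylase, a leucine-degrading enzyme on which SIRT4 acts. Mccc1 stood at 50.3, 55.2 and 53.9 CPM in ANKO and 102, 99.6 and 126 CPM in control (log2 fold change -1.04, SE 0.107, edgeR adjusted p = 0.00618). Mccc2 stood at 23.2, 30.3 and 23.5 CPM in ANKO and 55.5, 58.3 and 61.9 CPM in control (log2 fold change -1.19, SE 0.122, edgeR adjusted p = 0.00618). Their groups did not overlap, and both genes were called whichever library was left out. In this list 6 of 27 had all ANKO values under all control values, Mccc1 and Mccc2 among them, against 10.2% of all features. In 2 of 27 all ANKO values lay above all control values, against 9.19%. The median of this list was -0.03, and well-known SIRT3 targets did not pass the test: Sod2, the mitochondrial superoxide dismutase, had a log2 fold change of 0.01, Idh2, the NADP-dependent isocitrate dehydrogenase, of 0.16 and Acadl, the long-chain acyl-CoA dehydrogenase, of -0.75 (edgeR adjusted p = 0.105 for Acadl). DESeq2 called 5 of this list, Acadl, Hadh and Glud1 in addition, all lower. Without control 1, edgeR called 4, Acadl and Glud1 in addition.

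Of 18 substrates and partners of SIRT6 and SIRT7, 0 passed the test by edgeR or limma-voom, where edgeR called 1.59% of all features. By edgeR 12.9% of all features had an unadjusted p under 0.05. So did 8 of the 27 mitochondrial sirtuin substrates and partners, and 5 of the 22 genes of NAD synthesis and salvage. Counts were 4 of 22 SIRT1 substrates, 2 of 14 SIRT2 substrates and 2 of 11 SIRT1 regulators. They were 1 of 19 other NAD consumers and 0 of 11 zinc-dependent histone deacetylases. Of the 18 substrates and partners of SIRT6 and SIRT7, 1 had such a p. This was Pkm, the pyruvate kinase of glycolysis, at 830 ± 140 CPM in ANKO and 478 ± 98.7 in control (SD, n = 3 each; log2 fold change 0.80, edgeR adjusted p = 0.0980), which DESeq2 called. Genes of RNA polymerase I transcription, on which SIRT7 acts, had small fold changes, with Ubtf at -0.10, Mybbp1a at 0.08 and Polr1a at -0.00284 on the log2 scale.

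**Figure D4:**
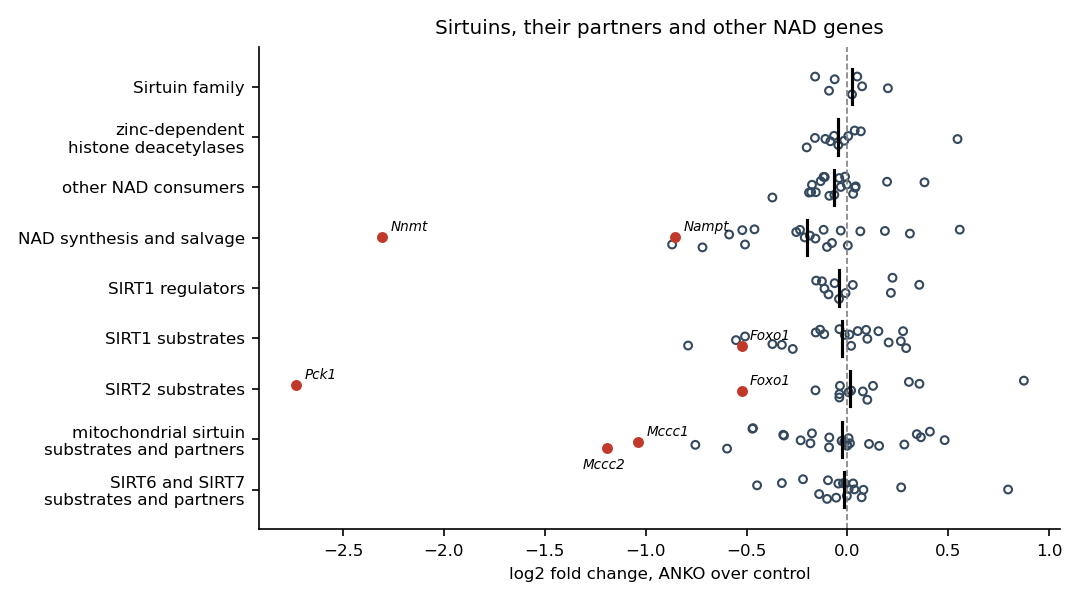
Log2 fold change of ANKO over control (horizontal axis) of each measured member of the sirtuin family and of 8 related lists, with the median as a black line and called genes filled in red and named. The sirtuins lie between -0.16 and 0.20, and the called genes are Nampt, Nnmt, Foxo1 (in both the SIRT1 and SIRT2 lists), Pck1, Mccc1 and Mccc2, all lower.

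The cells in the tissue were checked with marker genes, none of which was at 0 in all libraries. Of the 8 adipocyte markers, whose sums did not overlap between the groups, 3 fell, against 1.1% of all features. The 8 macrophage markers summed to 930 to 1111 CPM in ANKO and 680 to 777 CPM in control, with 1 of them higher. Of 4 mast cell markers 3 were higher, and over all features 0.488% were called higher. None of the 5 endothelial markers was called by edgeR, which called 1.59% of all features. These markers summed to 514 to 569 CPM in ANKO and 583 to 724 CPM in control. The 10 skeletal muscle markers summed to 75.8 to 15736 CPM per library in ANKO and to 1254 to 8195 CPM in control. The part of these cell types in the sirtuin values was not tested, except that with the muscle signal as a covariate the 7 log2 fold changes ran from -0.15 to 0.18 and none was called.

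**Figure D5:**
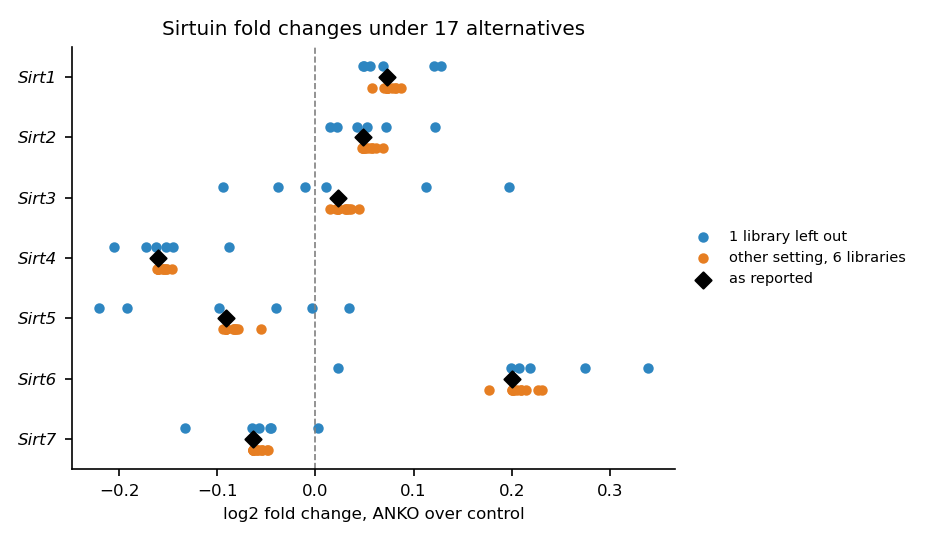
Log2 fold change of ANKO over control (horizontal axis) of each sirtuin as reported (black diamonds), under 11 other settings with all 6 libraries (orange) and with 1 library left out (blue). Values move little with the settings and most with single libraries, from 0.02 to 0.34 for Sirt6 and from -0.09 to 0.20 for Sirt3.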

How the data were processed

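RNA from subcutaneous white adipose tissue of 3 ANKO and 3 control mice was depleted of ribosomal RNA (Ribo-Zero Gold), per the labels' protocols. The deposited values are raw counts per gene symbol, 1 column per mouse. STAR 2.0.4b, Subread and featureCounts 1.45 with GRCm38 are named in the submitters' processing notes. The annotation release, strand setting and handling of reads shared by genes were not stated there or in the labels. Groups came from the sample titles. Of 40757 lines, 329 exact repeats were removed, none of them a sirtuin.

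Counts were filtered with filterByExpr (minimum count 10, minimum total count 15), scaled by TMM and tested with edgeR 4.0.16 (quasi-likelihood, robust=TRUE) in R 4.3.3. Standard errors are the fold change over the square root of F, and 95% intervals use the t quantile on the fit's degrees of freedom. Lengths and positions came from GENCODE M21 (GRCm38) and sequences before the starts from RefSeq (GRCm38.p6). DESeq2 1.42.0, limma-voom 3.58.1, other scalings and filters, a replicate block, a muscle covariate and leaving out each library were alternatives. The 7 genes and the lists were chosen with earlier results of these data known. Named genes are the sirtuins, Nampt, up to 3 called genes of each list by p (or the 1 with the smallest p) and the most similar feature of each sirtuin. Other genes in the text, including neighbours of the sirtuins, the motifs, Nmnat3, Pparg, Ppargc1a, Ccar2, Rps19bp1, Sod2, Idh2, Acadl, Hadh, Glud1, Ubtf, Mybbp1a, Polr1a and Nos3, were added after the values had been seen. The labels number the mice within groups but do not pair them.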

Additional observations from a re-analysis of the deposited data

How the results depend on the processing

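Under each of the 17 alternatives 0 sirtuins were called, and the lowest adjusted p of a sirtuin was 0.537 (Sirt6, edgeR without control 2). With all 6 libraries no setting turned the sign of a sirtuin. Leaving out 1 library gave log2 fold changes of 0.05 to 0.13 for Sirt1, 0.01 to 0.12 for Sirt2, -0.0937 to 0.20 for Sirt3, -0.21 to -0.09 for Sirt4, -0.22 to 0.0344 for Sirt5, 0.02 to 0.34 for Sirt6 and -0.13 to 0.0029 for Sirt7, and the cause was not tested. With the longest transcript the levels per kilobase were 6.502 for Sirt1, 35.5 for Sirt2, 3.12 for Sirt3, 6.98 for Sirt4, 4.70 for Sirt5, 10.4 for Sirt6 and 16.2 for Sirt7, since each length is shorter. Over all features 94 were higher and 212 lower in the fit reported. These became 388 higher and 498 lower with DESeq2, 167 higher with no low-count filter, 49 higher and 111 lower with the muscle covariate, and 20 to 107 higher and 55 to 221 lower without 1 library. SIRT1 substrates called were 2 with upper-quartile scaling, DESeq2 or no low-count filter (Nos3 in addition), 0 with the muscle covariate and 0 to 1 without 1 library. SIRT2 substrates called were 1 with no low-count filter or the muscle covariate and 0 to 2 without 1 library. Mitochondrial sirtuin substrates called were 5 with DESeq2 and 2 to 4 without 1 library, and SIRT6 and SIRT7 partners called were 1 with DESeq2. In the list of NAD synthesis and salvage, genes called were 3 with DESeq2 (Nmnat3 in addition) and 2, Nampt and Nnmt, under each other alternative.

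The mice share only replicate numbers across groups. Deviations of same-numbered libraries correlated at 0.0746, -0.0333 and -0.0435. With the replicate block 62 features were higher, 2 SIRT1 substrates were called, and 0 sirtuins were called. Nckipsd, whose log2 fold change was -0.00089, had 0.0080 with RLE scaling, 0.0082 with DESeq2, 4.96e-05 with limma-voom, 0.0054 with no low-count filter and 0.013 without mitochondrial-genome and ribosomal RNA genes. Leaving out 1 library gave -0.016 to 0.031 for Nckipsd, -0.12 to 0.0257 for Atp5g2 and -0.28 to 0.0888 for Jam3. Counting error alone was largest for Sirt3, Sirt5 and Sirt4, at 6.06% to 6.79% per library. The coefficient of variation among control mice was larger, at 19.4% for Sirt3, 14.8% for Sirt5 and 8.94% for Sirt4. Among ANKO mice it was 9.25%, 15.3% and 1.71%. Sirt6 had the largest SE, 0.181, with a counting error of 4.83% and a variation of 24.9% among control mice and 0.512% among ANKO mice. Replicates are separate mice by the series design, and intervals cover the spread between them.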
